A study of Mus musculus with 18 samples.

Results

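The set holds 40 genes of vesicle exocytosis and of the presynaptic terminal, found by their 40 gene names among the 52636 gene IDs of the deposited tables. All 40 were found. Of these, 7 (Syp, Syt14, Snap25, Syn1, Rab3c, Rimbp2 and Ptprn) are named in the study's text as changed, and are not an independent choice. Secretory cells that hold their product in vesicles release it when calcium rises. SNARE proteins on the vesicle and on the plasma membrane zip together, and some synaptotagmins sense the calcium. Complexins and Unc13 and CAPS proteins hold or prime the vesicle, and Rab3 and Rab27 with their effectors tether it. In nerve terminals, scaffold proteins such as Rims, Rimbp2, Bassoon (Bsn) and Piccolo (Pclo) gather vesicles at the active zone. Enteroendocrine cells of the gut, among them the serotonin-producing enterochromaffin cells, release peptides and amines with much of the same machinery, and the colon epithelium around them holds goblet cells, which secrete mucin, and absorptive colonocytes.

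RNA was measured in 18 libraries from mouse colon, 6 of sorted epithelial cells and 12 of crypts. The sorted libraries were 2 Epcam+ve samples of 1 wildtype (WT) mouse, 2 Epcam+ve/GFP+ve pools of heterozygous (HE) mice and 2 Epcam+ve/GFP+ve pools of homozygous knockout (KO) mice, each pool from 2 mice, all from animals of 4 to 7 months. In the Olfr78-GFP line (mixed B6;129P2 background), GFP with an IRES-tauLacZ cassette replaces the coding exon of the odorant receptor gene Olfr78, so that GFP+ve cells of HE mice have 1 intact copy of that gene and those of KO mice have none. The crypts came from 2 WT and 5 KO mice of this line, and from 3 control and 2 eKO mice of the Vil1Cre/+-Olfr78fx line, where Cre driven by the Villin promoter deletes the floxed gene in the epithelium. The study describes the genetic backgrounds of these lines as distinct, so line and background cannot be told apart in the crypts. The sorted comparison of HE pools with Epcam+ve samples therefore differed in both the GFP gate and the genotype. Both Epcam+ve samples came from the same mouse, so p-values that rest on them measure a spread that may be technical. The study's eKO mice were Vil1Cre/+-Olfr78fx/fx. Its controls, as given for colon biopsies, were either Vil1+/+-Olfr78fx/fx or Vil1Cre/+-Olfr78+/+. For the library titled eKO mouse 2, the genotype label reads as that of a control (WT/HO, as for control mouse 2), and crypt results of that line are given with and without it.

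Values are CP20M, reads on a gene scaled by the authors to a fixed total per library (counts per 20M). KO pool 1 was the shallowest library with 532703 recovered reads on genes. The other sorted libraries had 1499833 to 2237474, and there were 6175301 to 10995300 in crypts. A single read equalled 8.94 to 13.3 CP20M in those sorted libraries, 37.5 in KO pool 1 and 1.82 to 3.24 in the crypts. KO pool 2 stood apart from the other GFP+ve libraries. The summed CP20M of 7 goblet cell markers was 348939 and 298515 in Epcam+ve cells, 148437 and 67369 in HE pools, 62440 in KO pool 1 but 333622 in KO pool 2. The summed CP20M of 11 enteroendocrine markers was 749324 and 981113 in HE pools, 524349 and 313941 in the KO pools, against 12392 and 12200 in Epcam+ve cells. The HE pools differed from each other as well: the summed CP20M of 5 L cell markers was 8873 and 1590, with Pyy at 5017 and 681, against 3832 and 5695 in the KO pools. Of 12 enteric neuron markers, 5 to 8 were at 0 in each sorted library. Vip and Hand2 were at 0 in all 6, Prph was at 0 in 5 and at 38 in KO pool 1, and Elavl3 and Ret, which were 553 and 614 CP20M and 1462 and 1201 CP20M in HE pools, made up most of the list's sum there. The labels call the sorted GFP-ve cells of the WT mouse enteroendocrine, but their summed enteroendocrine markers lay within the range of the crypts (5534 to 13242, partly from the other table). Endothelial markers were higher in HE pools through Pecam1 (126 and 340 against 1496 and 1734 CP20M), while Cdh5 was at 0 in all 6 sorted libraries. Olfr78-GFP crypts were deposited in 1 table with sorted cells, while those of the Vil1Cre/+-Olfr78fx line have their own. For 11 of the 40 genes, among them Syp, Syn1, Syn2, Rab3a, Rimbp2, Unc13a, Ptprn, Pclo and Syt7, an exon overlaps a gene on the other strand, and the strand setting of the counting is not given in the sources used here, so these values are uncertain to that degree.

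**Figure D1:**
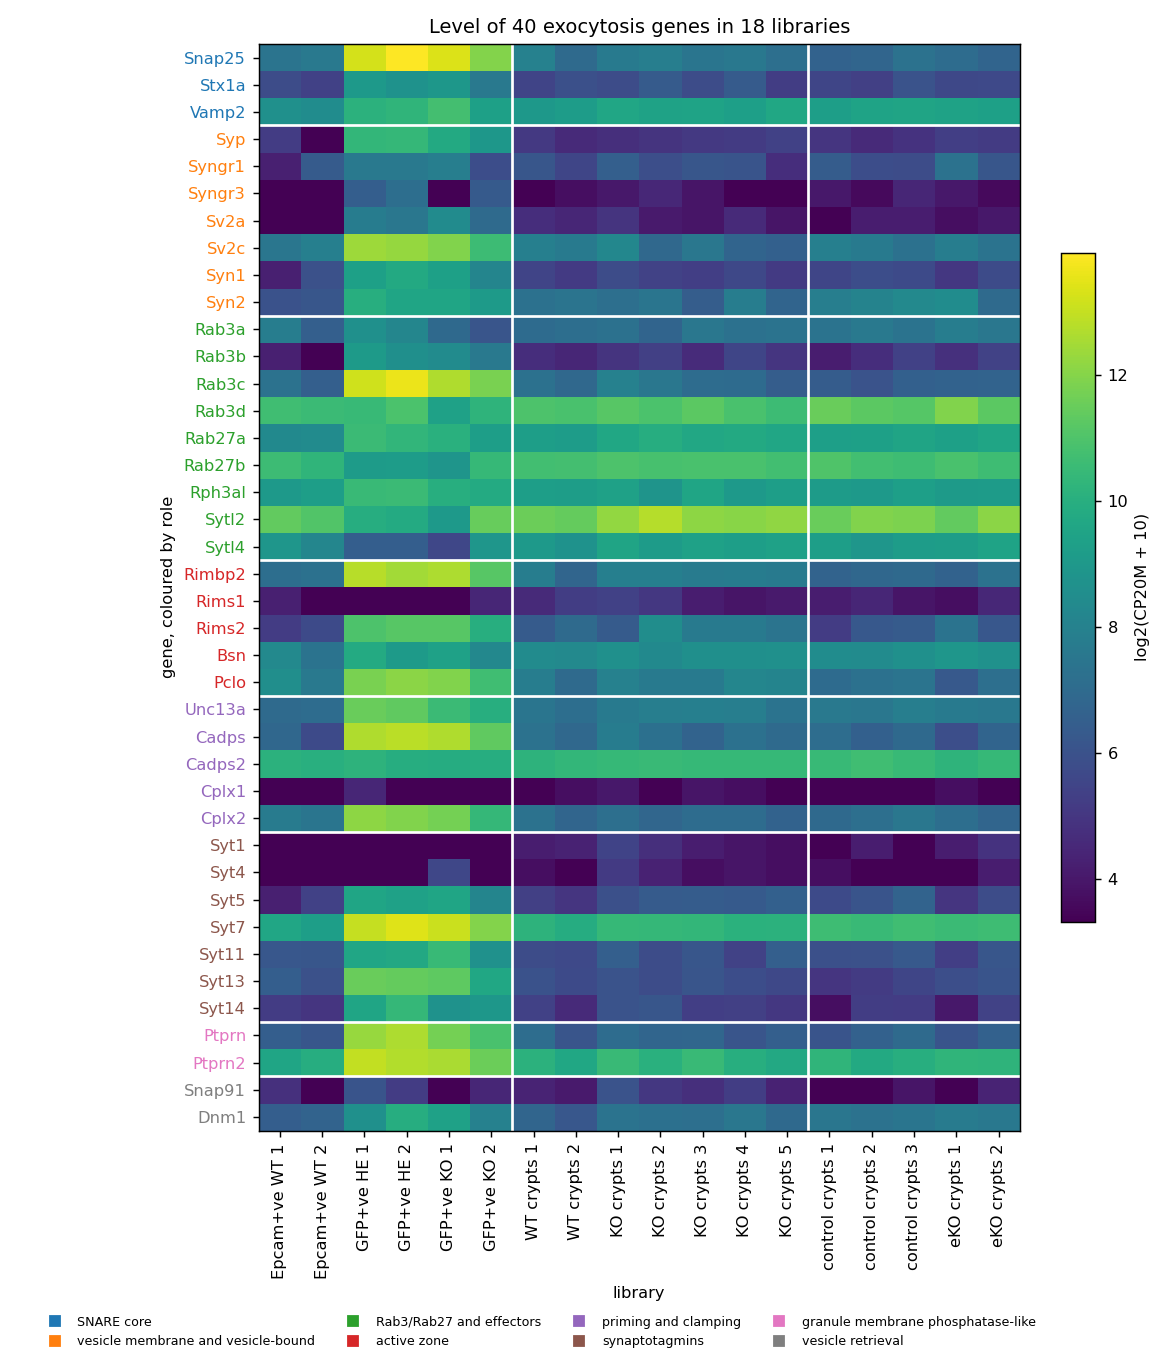
Heat map of log2(CP20M + 10) for the 40 genes (rows, coloured and ruled off by role) in the 18 libraries (columns, ruled off between sorted libraries, crypts of the Olfr78-GFP line and crypts of the Vil1Cre/+-Olfr78fx line). Most rows are bright in the GFP+ve columns and dim elsewhere, while Rab3d, Rab27b, Cadps2 and Sytl2 are bright in Epcam+ve cells and in the crypts.

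RefSeq promoters (GRCm38.p6, 250 bases before to 50 bases after the annotated start) were matched for 30 of the 40 genes, in 35 entries. They are shown for genes whose RNA was higher in GFP+ve cells and that hold letters of RE1, the element through which the repressor REST acts on many neuronal genes, and for a pair of Rab3 genes that differed in the same comparison. Capitals mark TTCAGCACC (a left part of RE1) and GGACAGCG (from its right part), on either strand, and in Syn1 also TGACGTCA (a cAMP response element).
Ptprn2 (chr12:116485470-116485769, + strand): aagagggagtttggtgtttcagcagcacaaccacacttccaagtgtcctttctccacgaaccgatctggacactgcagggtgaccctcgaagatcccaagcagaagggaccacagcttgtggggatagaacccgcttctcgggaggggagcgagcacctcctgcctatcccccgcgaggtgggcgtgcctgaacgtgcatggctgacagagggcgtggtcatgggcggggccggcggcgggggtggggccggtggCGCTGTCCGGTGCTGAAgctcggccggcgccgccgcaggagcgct
Unc13a (chr8:71671708-71672007, - strand): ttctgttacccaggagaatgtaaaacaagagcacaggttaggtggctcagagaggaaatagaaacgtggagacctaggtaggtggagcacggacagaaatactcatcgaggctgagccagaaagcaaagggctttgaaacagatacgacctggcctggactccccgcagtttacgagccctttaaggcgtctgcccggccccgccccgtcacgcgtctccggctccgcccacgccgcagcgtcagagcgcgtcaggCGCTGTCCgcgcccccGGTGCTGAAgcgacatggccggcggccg
Syn1 (chrX:20920869-20921168, - strand): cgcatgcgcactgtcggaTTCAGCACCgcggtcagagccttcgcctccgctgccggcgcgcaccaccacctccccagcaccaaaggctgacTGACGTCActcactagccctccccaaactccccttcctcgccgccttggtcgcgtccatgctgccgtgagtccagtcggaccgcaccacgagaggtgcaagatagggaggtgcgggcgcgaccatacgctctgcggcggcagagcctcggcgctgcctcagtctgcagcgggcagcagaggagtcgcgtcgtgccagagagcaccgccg
Rimbp2 (chr5:128953437-128953736, - strand): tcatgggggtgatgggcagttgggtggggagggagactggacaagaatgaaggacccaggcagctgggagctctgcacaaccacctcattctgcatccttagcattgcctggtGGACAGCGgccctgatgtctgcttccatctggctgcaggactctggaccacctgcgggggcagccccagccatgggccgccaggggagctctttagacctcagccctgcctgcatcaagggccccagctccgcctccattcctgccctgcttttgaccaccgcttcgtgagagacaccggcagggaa

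In Ptprn2 the reverse complement of GGACAGCG ran from positions 6 to 13 and that of TTCAGCACC from 14 to 22 after the start, so the 2 parts adjoined. In Unc13a they ran from 7 to 14 and from 23 to 31. In Syn1, TTCAGCACC lay at positions -232 to -224, with no GGACAG in the window, and in Rimbp2 GGACAGCG lay at -137 to -130 without the left part. TTCAGCACC was held by 3 of the 35 member entries, against 0.371% of all 32851 promoters. GGACAGCG was held by 3 of 35 against 1.26% of all. Both parts in this order on 1 strand, with at most 12 bases between TTCAGCACC and GGACAG, occurred in 13 of the 27025 genes of the table, among them Ptprn2 and Unc13a. These matches describe letters in a window and were looked for after the levels were known.

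The Rab3 pair is shown with GGGCGG (a GC box, either strand) and CAGCTG (an E box) in capitals.
Rab3c (chr13:110280157-110280456, - strand): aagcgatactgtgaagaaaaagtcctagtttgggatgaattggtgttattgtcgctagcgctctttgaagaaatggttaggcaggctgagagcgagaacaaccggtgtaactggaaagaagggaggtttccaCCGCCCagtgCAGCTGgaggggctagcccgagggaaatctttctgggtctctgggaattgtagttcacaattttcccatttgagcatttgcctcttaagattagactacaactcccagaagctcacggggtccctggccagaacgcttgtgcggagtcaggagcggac
Rab3d (chr9:21918134-21918433, - strand): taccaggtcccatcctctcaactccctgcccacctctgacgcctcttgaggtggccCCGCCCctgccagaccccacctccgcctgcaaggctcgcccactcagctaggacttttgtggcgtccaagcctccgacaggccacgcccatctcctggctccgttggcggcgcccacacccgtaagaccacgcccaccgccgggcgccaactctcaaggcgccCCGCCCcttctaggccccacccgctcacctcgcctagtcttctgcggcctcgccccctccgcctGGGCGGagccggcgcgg

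Rab3c held 1 GC box and 1 E box in a window of 50.7% G and C, and Rab3d held 3 GC boxes and no E box in a window of 71% G and C. GGGCGG was held by 24 of the 35 member entries, against 35.7% of all promoters, and CAGCTG by 12 of 35 against 16.3%. TATAAA was held by 1 member, Rab3b, against 13.6% of all. The median share of G and C was 61.3% over the member entries and 52.7% over all promoters.

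The first comparison asked which of these genes mark the GFP+ve cells. Most exocytosis genes stood far higher in the GFP+ve HE pools than in Epcam+ve cells, led by Rab3c, Cadps, Ptprn, Syp and Snap25. Of the 40 genes, 35 reached at least 40 CP20M in at least 2 of the 4 libraries and entered the limma fit (log2 of CP20M + 10, p-values adjusted by Benjamini-Hochberg over the 16355 genes tested). Of these, 17 were called higher (adjusted p under 0.001 and log2 fold change beyond 2), where 1.58% of all tested genes were. None was called lower, where 0.171% of all tested genes were. At an unadjusted p under 0.05, 30 of the 35 were higher and 3 were lower, where 18.2% and 19.0% of all tested genes were. The median log2 fold change was 3.77 over the 35 genes and -0.05 over all tested genes. Of the 35, 10 had fewer than 2 Epcam+ve samples at the filter (Rab3b, Rims2, Stx1a, Sv2a, Syn1, Syngr1, Syngr3, Syp, Syt14 and Syt5). Of these, 6 had none (Rab3b, Sv2a, Syngr3, Syp, Syt14 and Syt5) and had to be higher in HE pools. These counts therefore describe the set and support nothing further. In such bulk samples, fewer cells of a type and less RNA per cell cannot be told apart.

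Among the SNARE core, Snap25, the plasma membrane SNARE of neurons and endocrine cells, was called. It was 161 and 185 CP20M in Epcam+ve cells and 9735 and 15789 CP20M in HE pools, a ratio of the means of 73.8 and a log2 fold change of 6.09 ± 0.26 (SE, adjusted p = 9.5e-06). Both HE pools lay far above both Epcam+ve samples. Stx1a, its partner on the plasma membrane, was 45 and 31 against 530 and 414 CP20M (log2 fold change 3.33 ± 0.49, adjusted p = 0.0028), which missed the adjusted threshold. Vamp2, the vesicle SNARE, was already 394 and 350 CP20M in Epcam+ve cells and 1140 and 1227 in HE pools (1.64 ± 0.25, adjusted p = 0.00322), the smallest difference of the 3.

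All 7 vesicle membrane and vesicle-bound genes were higher in HE pools, and 3 of them were called. Syp (synaptophysin, a major membrane protein of synaptic vesicles) rose from 27 and 0 to 1301 and 1334 CP20M (6.11 ± 0.65, adjusted p = 6.6e-04). Its Epcam+ve level rested on 3 reads in all, and the ratio of its reads at equal library totals was 91.8, with an exact binomial 95% interval of 31 to 448 for counting error only. Sv2c, a transporter-like vesicle glycoprotein, rose from 170 and 227 to 5432 and 4934 CP20M (4.65 ± 0.24, adjusted p = 1.5e-05). Syn2 (synapsin, which ties vesicles to actin) rose from 54 and 62 to 1013 and 747 CP20M (3.70 ± 0.40, adjusted p = 7.2e-04).

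Both groups stayed apart for the other 4 vesicle genes too, at lower counts. Syn1 was 9 and 52 against 645 and 867 CP20M (4.46 ± 0.63, adjusted p = 0.00236). Sv2a, at 0 in both Epcam+ve samples, was 208 and 174 CP20M in HE pools, at least 6.63-fold higher than a floor of 3 reads per library. Syngr3 was likewise at 0 against 81 and 134 CP20M, at least 3.73-fold higher, and Syngr1 was 9 and 72 against 185 and 187 CP20M (2.31 ± 0.76, adjusted p = 0.0587).

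The Rab3 and Rab27 GTPases and their effectors lay on both sides of 0, and 1 of the 9 was called. Rab3c was called, rising from 152 and 83 to 9229 and 12562 CP20M (log2 fold change 6.46 ± 0.31, adjusted p = 1.1e-05). Rab3b was 9 and 0 against 541 and 387 CP20M, with 1 read in all in Epcam+ve cells and a ratio of 98.2 (exact binomial 95% interval 17.1 to 3930), and its adjusted p was 0.00126. Rab3a was 215 and 83 against 392 and 281 CP20M (1.24 ± 0.52, adjusted p = 0.121). Rab3d, the isoform of exocrine secretory cells, did not pass the test at 1654 and 1521 against 1439 and 1961 CP20M, with a 95% interval of the log2 fold change of -0.42 to 0.59.

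The Rab27 paralogs lay on opposite sides of 0, and neither was called. Rab27a was 322 and 340 CP20M in Epcam+ve cells and 1508 and 1267 in HE pools (2.03 ± 0.25, adjusted p = 0.00138), and the Rab effector Rph3al was 528 and 617 against 1462 and 1494 (1.36 ± 0.23, adjusted p = 0.00473). Rab27b was lower in HE pools, 553 and 574 against 1565 and 1223 CP20M (-1.28 ± 0.24, unadjusted p = 6.1e-04, adjusted p = 0.00746, limma). Of the synaptotagmin-like Rab27 effectors, Sytl2 was 2664 and 2127 against 979 and 881 CP20M (-1.35 ± 0.21, adjusted p = 0.00366), and Sytl4 was 465 and 288 against 81 and 81 CP20M (-2.05 ± 0.47, adjusted p = 0.0157). For each of these 3 the HE pools lay below both Epcam+ve samples, and none met the threshold of the comparison. The goblet markers were lower in HE pools as well (above), and their part in these 3 values was not tested.

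Of the 4 tested active zone scaffolds, 3 were called. Rimbp2, which links Rims to calcium channels, rose from 135 and 144 to 7158 and 5668 CP20M (5.42 ± 0.23, adjusted p = 9.5e-06). Rims2 rose from 27 and 42 to 2037 and 2307 CP20M (5.63 ± 0.37, adjusted p = 5.1e-05), whereas its paralog Rims1 was at 9, 0, 0 and 0 CP20M, not more than 1 read in any of these libraries. Pclo rose from 376 and 185 to 3533 and 4334 CP20M (3.84 ± 0.33, adjusted p = 2.3e-04). Bsn, its relative, was 313 and 155 against 898 and 547 CP20M (1.62 ± 0.42, adjusted p = 0.0264) and was not called.

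Of the 4 tested priming and clamping genes, 3 were called. Unc13a, which opens syntaxin for SNARE assembly, rose from 117 and 124 to 2935 and 2641 CP20M (4.42 ± 0.26, adjusted p = 3.2e-05). Cadps (CAPS1, a priming factor of dense-core vesicles) rose from 108 and 42 to 6548 and 7388 CP20M (6.47 ± 0.38, adjusted p = 3.0e-05), and Cplx2 (complexin) from 206 and 165 to 4500 and 3881 CP20M (4.43 ± 0.24, adjusted p = 2.1e-05). Their paralogs were not called. Cadps2 was 1127 and 1018 against 1174 and 961 CP20M, with a 95% interval of the log2 fold change of -0.53 to 0.50, and Cplx1 had 1 read over these 4 libraries.

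Of the 5 tested synaptotagmins, a family that includes the calcium sensors of release, 4 were called. Syt7, a high-affinity sensor, rose from 778 and 617 to 8297 and 11015 CP20M (3.77 ± 0.22, adjusted p = 2.9e-05). Syt13 rose from 81 and 52 to 2923 and 2747 CP20M (5.24 ± 0.32, adjusted p = 3.6e-05). Syt14 rose from 27 and 21 to 760 and 1321 CP20M (4.90 ± 0.48, adjusted p = 4.4e-04). Syt13 and Syt14 lack the residues with which Syt7 and some other synaptotagmins bind calcium.

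Syt11 rose from 63 and 62 to 771 and 854 CP20M (3.50 ± 0.39, adjusted p = 7.8e-04). Syt5 was 9 and 31 against 748 and 667 CP20M (4.68 ± 0.56, adjusted p = 0.00109), just outside the threshold. Syt1, the main calcium sensor of fast synaptic release, was at 0 in all 6 sorted libraries. Syt4 was at 0 in 5 of them and at 1 read in KO pool 1.

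Both phosphatase-like proteins of the dense-core granule membrane were called. Ptprn (IA-2) rose from 81 and 62 to 5029 and 6428 CP20M (6.14 ± 0.27, adjusted p = 9.5e-06), and Ptprn2 from 742 and 987 to 8090 and 6788 CP20M (3.10 ± 0.21, adjusted p = 6.2e-05). Of the vesicle retrieval genes, Dnm1 (dynamin, which pinches off endocytic vesicles) was 81 and 93 against 392 and 987 CP20M (2.71 ± 0.50, adjusted p = 0.00706), and the clathrin adaptor Snap91, at 18 and 0 against 58 and 27, was not tested.

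**Figure D2:**
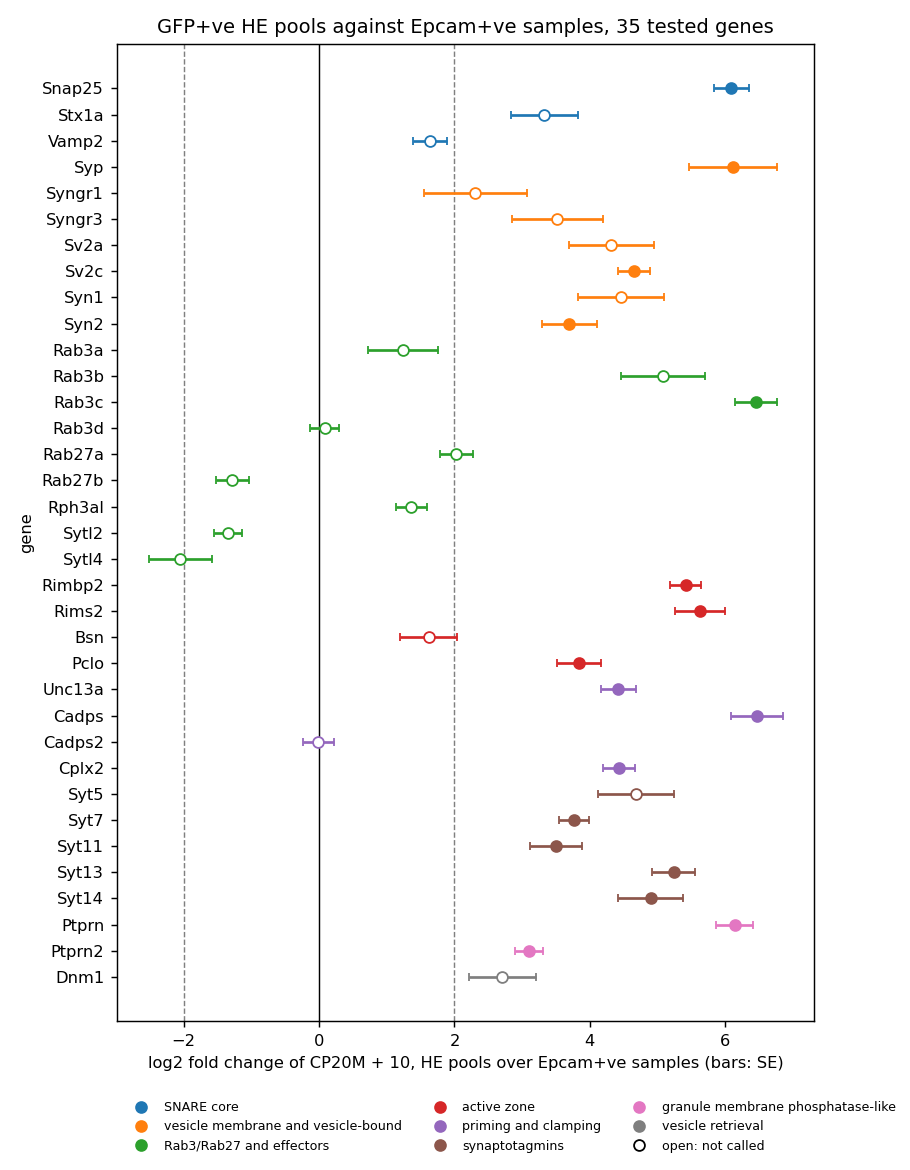
Log2 fold change of CP20M + 10 (x axis, bars are SE) of the 35 tested genes in the 2 GFP+ve HE pools over the 2 Epcam+ve samples, coloured by role, with filled points for genes called and dashed lines at a log2 fold change of 2 in either direction. The 17 filled points lie at 3.10 or above, and Rab27b, Sytl2 and Sytl4 lie left of 0.

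Each of the 17 called genes kept its direction in all the alternatives in which it was tested. With a pseudocount of 1 in place of 10, 10 of the 17 were called. Without a trend of the spread on the level in limma, none was, with 32 members at an unadjusted p under 0.05, and no other gene of the table was called there either. Of the 17, 10 (Cplx2, Ptprn, Rab3c, Rimbp2, Rims2, Snap25, Sv2c, Syt13, Syt7 and Unc13a) were called in every alternative other than that one. On recovered reads, edgeR called 24 members and DESeq2 called 23, all higher, and all 17 were among them. Over all tested genes, edgeR called 583 higher and DESeq2 called 548 higher.

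The levels were also divided by that of Chga, the granule protein chromogranin A that marks enteroendocrine cells, a scale chosen after seeing the data. Chga is itself far higher in HE pools, so a gene whose level rises less than that of Chga comes out lower on this scale by construction. Per 1000 CP20M of Chga, Snap25 was 45.9 and 54.7 in Epcam+ve cells and 40.1 and 51.8 in HE pools. Rab3c was 43.4 and 24.6 against 38 and 41.2, and Ptprn was 23.1 and 18.3 against 20.7 and 21.1. The CP20M of these 3 differed by a factor of 73.8 to 92.7. Rab3d and Cadps2, whose CP20M did not pass the test, and Syt7, whose CP20M rose, had lower ratios to Chga in HE pools. Per 1000 CP20M of Chga, Rab3d was 472 and 450 against 5.93 and 6.44, Cadps2 322 and 301 against 4.83 and 3.16, and Syt7 222 and 183 against 34.2 and 36.2. Of the other called genes, Ptprn2 was also lower, at 212 and 292 against 33.3 and 22.3. So were Cplx2, Sv2c, Unc13a, Pclo, Syn2, Rimbp2, Syt11, Syt13 and Syt14, with both HE pools below both Epcam+ve samples. Cadps, Rims2 and Syp overlapped between the groups, as Snap25, Rab3c and Ptprn did.

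Per kilobase of exon (all exons of the gene in GENCODE M21 joined), the order of the genes changed between the groups. In the HE pools Snap25 stood first at 1880 ± 630 CP20M per kb (SD, n = 2), followed by Ptprn at 1348 ± 233, Syt7 at 1289 ± 257, Rab3c at 908 ± 196, Ptprn2 at 865 ± 107 and Cplx2 at 850 ± 88.8. Neighbours in this order overlapped between pools, except Syt7 and Rab3c, which did not. In the Epcam+ve samples Rab3d stood first at 378 ± 22.4 CP20M per kb, apart from Sytl2 at 172 ± 27.3, Rph3al at 150 ± 16.5, Rab27b at 130 ± 22.6 and Cadps2 at 112 ± 8.05, while Snap25 was 25.5 ± 2.5. Rab3d and Sytl2 also led in WT crypts, with Rab3d at 465, Sytl2 at 208, Rab27b at 161 and Rph3al at 158 CP20M per kb.

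Within families, the leading member per kilobase switched. Rab3d held 77.9% and 89.1% of the summed Rab3 level per kilobase in Epcam+ve cells and 86.8% and 86.3% in WT crypts, but 23.8% and 26.7% in HE pools, where Rab3c held 53.4% and 59.8%. Cadps2 held 94.3% and 97.5% of the CAPS level in Epcam+ve cells, and Cadps held 77.9% and 83% in HE pools. Ptprn went from 18.1% and 11.3% of the Ptprn and Ptprn2 level to 55.7% and 65.7%. Rab27a went from 36.2% and 43.4% of the Rab27 level to 88.3% and 85.9%.

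In the SV2 and synaptotagmin families the leading member was the same in both groups. Sv2c held all of the SV2 level in Epcam+ve cells and 92.6% and 93.1% in HE pools. Among the synaptotagmins Syt7 led in every sorted library, with 72.4% and 67.0% in Epcam+ve cells and 45.9% and 53.4% in HE pools, and Syt13 came next with 32.2% and 26.5% in HE pools. Syn1 held 57.6% and 71.2% of the synapsin level in HE pools and 26.2% and 64.1% in Epcam+ve cells, which overlapped, so that Syn2 led in Epcam+ve sample 1 alone.

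**Figure D3:**
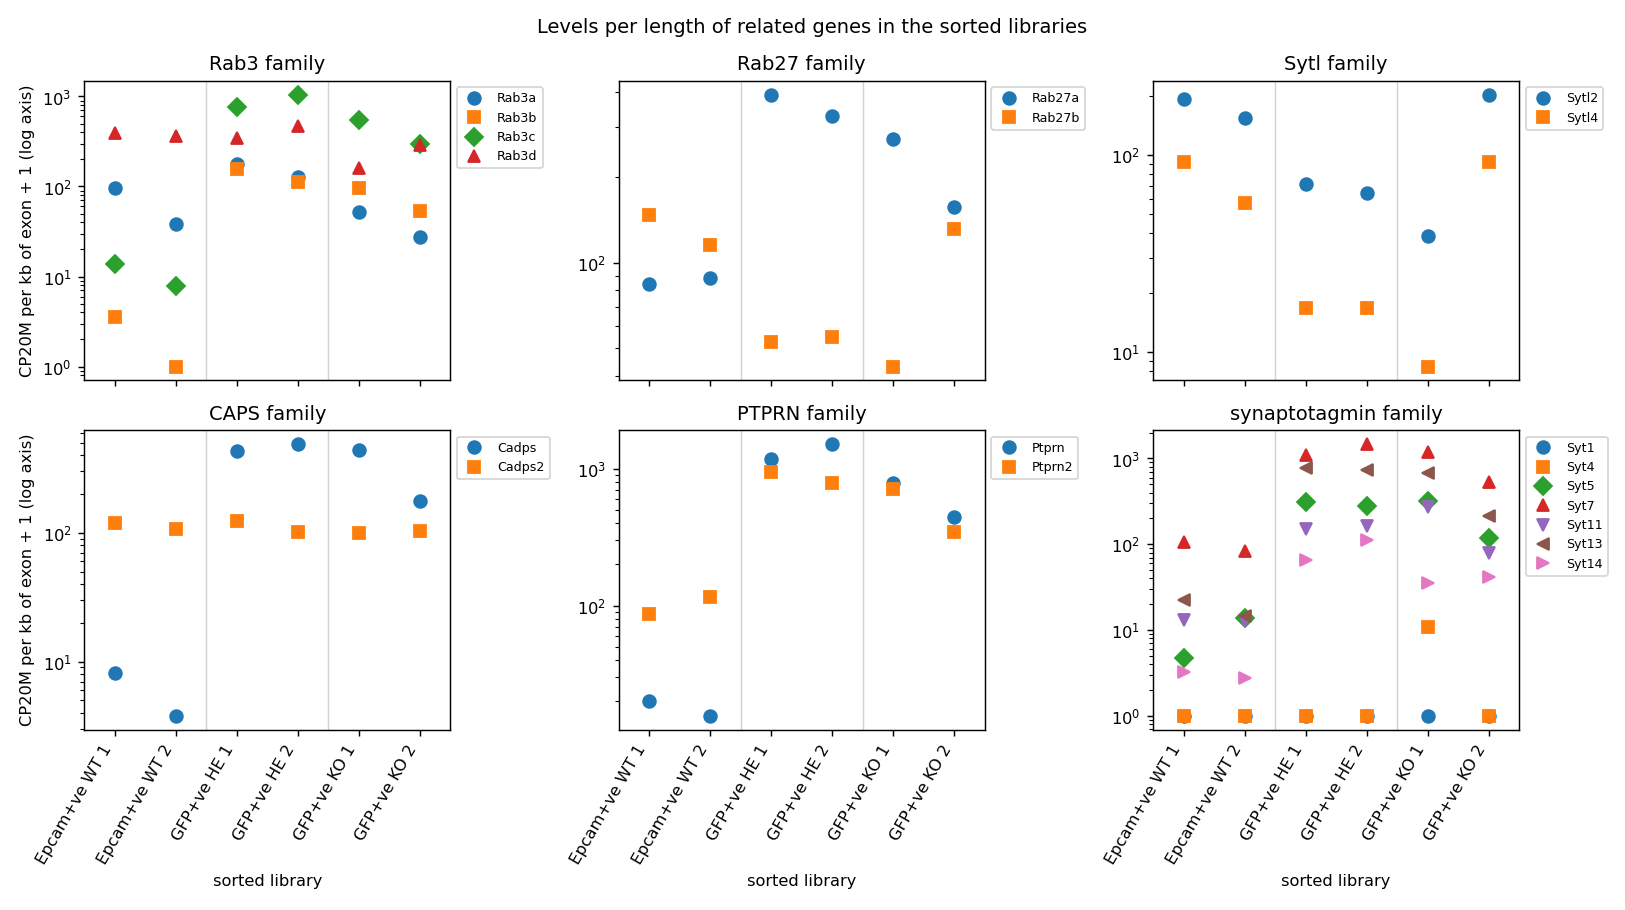
CP20M per kilobase of exon plus 1 (log axis) for 6 families of related genes in the 6 sorted libraries (x axis, 1 point per gene and library, vertical lines between groups). Cadps, Ptprn and Rab27a lie above their paralogs in HE pools and below them in Epcam+ve cells. Rab3c lies above its paralogs in HE pools, and in Epcam+ve cells it lies below Rab3a and Rab3d but above Rab3b. In KO pool 2, Rab27b, Sytl2 and Sytl4 lie at the level of the Epcam+ve samples.

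Genes of the same machinery outside the set were followed on 2 lists. Of 46 further genes of regulated exocytosis, 26 were tested and 3 were called, all higher, where 1.58% of all tested genes were. Among them were the Rab27 effector Sytl5, at 36 and 21 against 725 and 1147 CP20M (4.61 ± 0.48, adjusted p = 6.1e-04), and the syntaxin-binding Stxbp5l, at 54 and 42 against 691 and 947 CP20M (3.83 ± 0.43, adjusted p = 8.1e-04). Sytl5 was under the filter of 40 CP20M in both Epcam+ve samples and had to be higher in HE pools. The median log2 fold change of the 26 was 0.52. Of 34 SNARE and fusion genes of general membrane traffic, all were tested and none was called by limma, with 5 higher and 2 lower at an unadjusted p under 0.05, and their median was -0.06, beside -0.05 over all tested genes.

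The comparison of KO with HE pools asked whether loss of the receptor changes these genes in GFP+ve cells. Levels were lower in KO pools for most of the set, but the 2 KO pools did not stand alike. Of the 33 genes above 40 CP20M in all 4 pools, 10 passed the criterion of the study's methods (difference of the means beyond 2 times the mean of both SDs, and beyond 1.5-fold), all lower, where 9.99% of all tested genes passed it lower and 3.23% higher. Under limma none passed an adjusted p of 0.05, where 0.00% of all 11892 tested genes did, 7 of the 33 were lower at an unadjusted p under 0.05 (3.27% of all tested genes were), and on recovered reads edgeR and DESeq2 each called 0 of them. The smallest adjusted p was 0.931. The median log2 fold change was -0.73 over the 33 genes and -0.18 over all tested genes.

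Of the 8 tested genes of the Rab3 and Rab27 group, 5 passed the criterion. Rab3c was 9229 and 12562 CP20M in HE pools and 6496 and 3556 in KO pools (log2 ratio of the means -1.12). Rab3a was 392 and 281 against 113 and 59 CP20M (-1.97), where 1 read of KO pool 1 is worth 37.5 CP20M. Rab3d was 1439 and 1961 against 676 and 1209 CP20M (-0.85), and Rab27a was 1508 and 1267 against 1052 and 605 CP20M (-0.74). Rph3al was 1462 and 1494 against 1014 and 895 CP20M (-0.63). In each of these 5 both KO pools lay below both HE pools.

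Unc13a was 2935 and 2641 CP20M in HE pools and 1502 and 1011 in KO pools (-1.15), and Ptprn was 5029 and 6428 against 3342 and 1883 CP20M (-1.13). Syp was 1301 and 1334 against 864 and 477 CP20M (-0.97), and Sv2c was 5432 and 4934 against 3905 and 1569 CP20M (-0.92). The KO pools were again below both HE pools throughout. Syt14 was 760 and 1321 against 413 and 489 CP20M (-1.21).

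The KO pools differed from each other, and KO pool 2 was the lower in 28 of the 33 genes, where it was in 46.8% of all tested genes. KO pool 2 lay below both HE pools in 30 of the 33 genes, where 44.5% of all tested genes did. KO pool 1 did so in 18 of 33, where 50.1% of all did. It lay between them in 10, where 24.5% of all did, and above them in 5 (Sv2a, Syngr1, Syt11, Syt5 and Vamp2), where 25.4% did. Both KO pools lay below both HE pools in 15 of 33 genes, where 26.1% of all tested genes did, and above both in none, where 8.91% did. The median ratio to the mean of the HE pools was 0.85 in KO pool 1 and 0.4 in KO pool 2, against 0.849 and 0.908 over all tested genes. Chga itself stood at 0.614 and 0.391 of its HE mean.

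The 3 genes with a lower level in HE pools than in Epcam+ve cells stood high in KO pool 2. Sytl2 was 526 CP20M in KO pool 1 but 2813 in the other, Rab27b 451 and 1395, and Sytl4 38 and 465, against means of 2396, 1394 and 376 CP20M in Epcam+ve cells. The summed goblet markers of KO pool 2 were 3.09 times their HE mean, while those of KO pool 1 were 0.579 times it, and the part of such markers in the levels of the set was not tested. Relative to Chga, the median ratio to the HE pools was 1.38 in KO pool 1 and 0.992 in KO pool 2. On that scale Rab3a was still lowest in both, at 0.53 and 0.434, whereas Unc13a (0.861 and 0.909), Ptprn (0.951 and 0.841), Rab3c (0.975 and 0.838) and Syp (1.06 and 0.914) had ratios nearer to 1. Of the other genes past the criterion, Rab3d had 0.651 and 1.83, Syt14 0.658 and 1.22, and Sv2c 1.2 and 0.759. Rph3al had 1.1 and 1.53, and Rab27a 1.21 and 1.09. Chga was itself lower in both KO pools, so this scale raises every ratio.

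Without KO pool 2, 8 of the 33 genes passed the criterion, and none passed limma. Of the 8, 6 were lower (Ptprn, Rab3a, Rab3d, Syp, Sytl2 and Unc13a), where 17.7% of all tested genes passed it lower, and 2 were higher (Sv2a and Syt11), where 9.49% did. Without KO pool 1, 27 passed the criterion, 25 of them lower, where 14.6% of all tested genes passed it lower. In that fit 14 passed limma, 13 of them lower, where 1.82% of all did. In these fits the lone pool was assumed to vary like the HE pools. The log2 ratio of 11 of the 33 genes turned sign when 1 or the other KO pool was left out, some of them at values near 0. Sytl2, at 0.84 with both KO pools, was -0.82 without KO pool 2 and 1.60 without KO pool 1, and Syt11, at 0.17, was 0.81 without KO pool 2 and below 0 without KO pool 1. Only Rab3a and Unc13a passed the criterion in every one of its 10 alternatives, and Rab3a rested on 3 and 5 reads in the KO pools and shares exon sequence with Mpv17l2 on the other strand. Rescaling by median of ratios, under which the median over all tested genes moved from -0.15 to 0.01 for the criterion, left 6 of the 10 (Ptprn, Rab3a, Sv2c, Syp, Syt14 and Unc13a). Over all tested genes, 1188 passed lower and 384 higher as deposited, and 633 lower and 655 higher after rescaling.

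**Figure D4:**
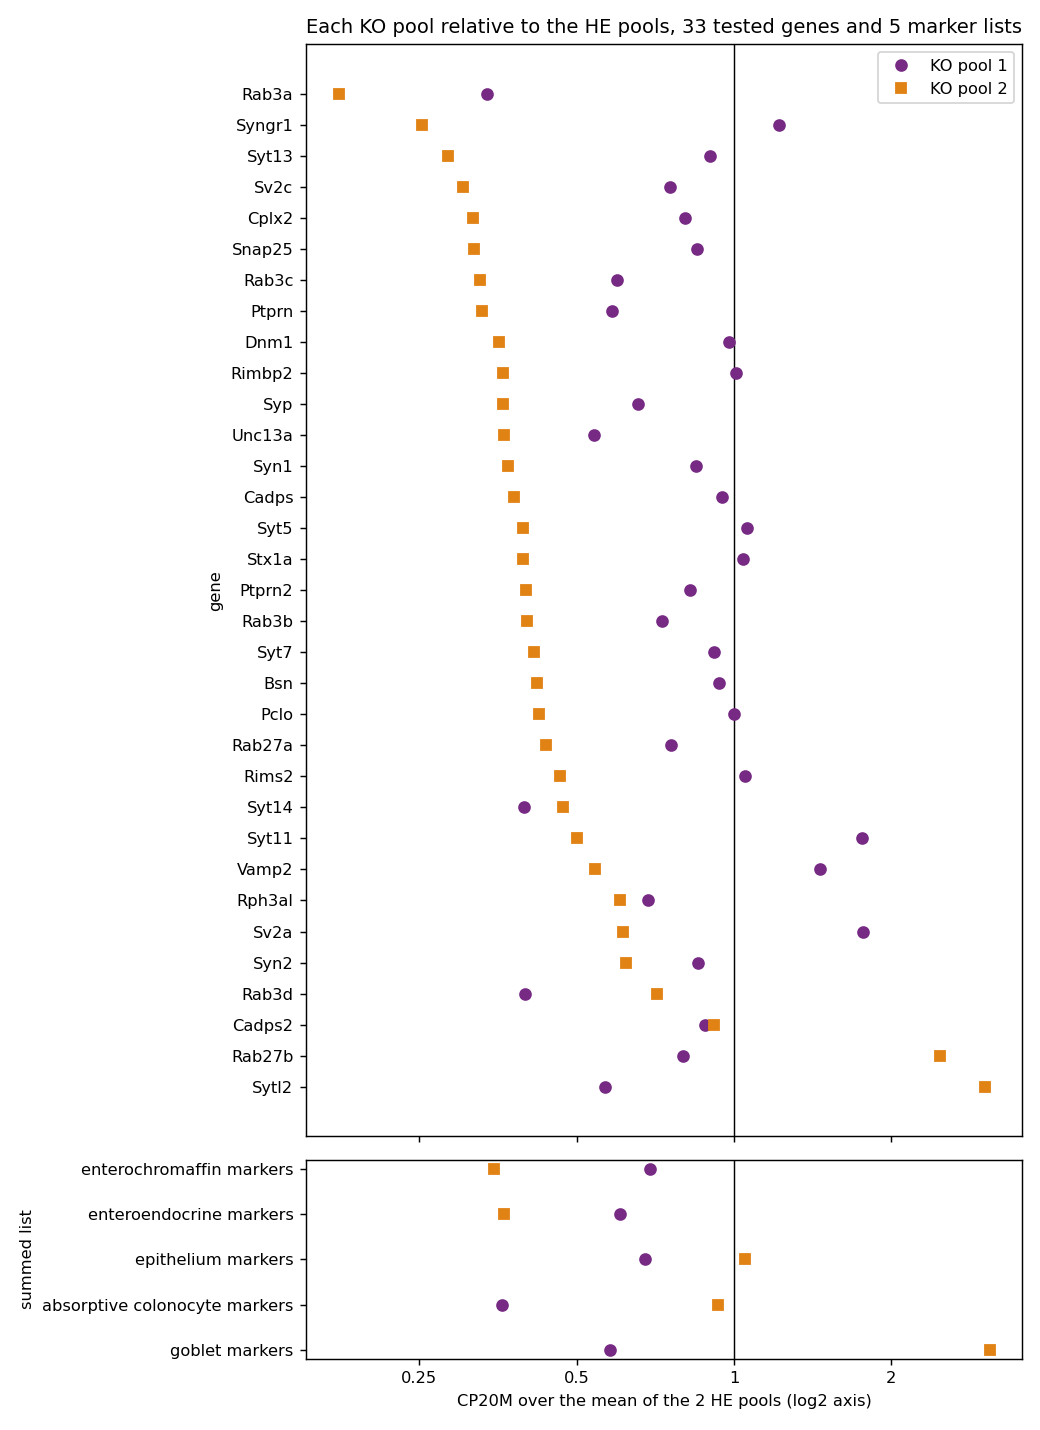
CP20M of each KO pool over the mean of the 2 HE pools (log2 axis, circles KO pool 1, squares KO pool 2) for the 33 tested genes, sorted by KO pool 2, and for the summed CP20M of 5 marker lists. KO pool 2 lies left of 1 for 31 genes and far right for Sytl2, Rab27b and the goblet markers, and KO pool 1 scatters around its median of 0.85.

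The KO pools were also set beside the Epcam+ve samples. These samples are shared with the first comparison, so the counts and p-values below are not independent of it. Of the 34 genes tested, 28 were higher in KO pools, 25 of them at an unadjusted p under 0.05 (7.67% of all 15779 tested genes were). The median log2 fold change was 3.26. Of the 34, 9 had fewer than 2 Epcam+ve samples at the filter (Rab3b, Rims2, Stx1a, Sv2a, Syn1, Syngr1, Syp, Syt14 and Syt5). Of these, 5 had none (Rab3b, Sv2a, Syp, Syt14 and Syt5) and had to be higher in KO pools. Sytl4 had fewer than 2 KO pools at the filter. These counts therefore describe the set and support nothing further. None of the 34 was called at an adjusted p under 0.001 by limma, where 0.00% of all tested genes were. On recovered reads, edgeR called 4 (Cadps, Ptprn, Rab3c and Snap25) and DESeq2 called 18. The share over all genes is not given for these counts, so they too only describe the set. Snap25 was 10851 and 4056 CP20M in KO pools (log2 fold change 5.19 ± 0.48, adjusted p = 0.0218), beside 6.09 for the HE pools. Cadps was 6608 and 2638 CP20M (5.74 ± 0.59, adjusted p = 0.024), beside 6.47. Without KO pool 2, limma called 21 genes, of which 19 were higher, where 2.25% of all tested genes were, and 2 were lower, where 9.65% were. Without KO pool 1 it called 13, all higher, where 0.704% were. The spread of the lone KO pool was taken from the Epcam+ve samples in these fits.

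In crypts, cells of every epithelial type are mixed. The genes called in HE pools stood there, in the median, near the level of the Epcam+ve samples. Their ratio of Epcam+ve samples to WT crypts had a median of 0.903 and ran from 0.367 for Rims2 to 1.68 for Pclo. Snap25 was 248 and 118 CP20M in WT crypts, and the mean of the HE pools was 28.9 times that of the WT crypts in the median over the 16 called genes that could be tested in crypts, from 5.75 for Syn2 to 84.5 for Rab3c, beside 94.7 for Chga. The comparison of crypts asked whether loss of Olfr78 in the whole animal or in the epithelium changes these levels. In the Olfr78-GFP line, 31 of the 40 genes were tested and 3 were called higher in KO crypts (adjusted p of at most 0.2 and beyond 1.5-fold). This share was near the 7.95% of all 15975 tested genes called higher. None was called lower, where 1.53% were. The median log2 fold change was 0.21, beside 0.03 over all tested genes.

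The 3 genes called were Sytl2, Syt5 and Dnm1. Sytl2 was 3028 and 2746 CP20M in the WT crypts and 4725, 6854, 4506, 4237 and 4597 in the KO crypts (log2 fold change 0.76 ± 0.15, adjusted p = 0.0155). Syt5 was 30 and 21 against 50, 72, 76, 70 and 87 CP20M (1.18 ± 0.25, adjusted p = 0.0186), and it passed the filter only through the KO crypts. Dnm1 was 99 and 64 against 155, 140, 136, 178 and 114 CP20M (0.77 ± 0.21, adjusted p = 0.0494). Every KO mouse was above both WT mice for all 3. Without WT mouse 2 only Sytl2 was called, where 2.89% of all tested genes were called higher. Without WT mouse 1, 6 genes were (also Pclo, Rimbp2 and Sytl4), where 4.83% were. Without KO mouse 1, 5 were (also Rims2, higher, and Sv2c, lower), where 8.92% were called higher and 1.75% lower.

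The 2 WT mice differed among themselves in the genes of GFP+ve cells. WT mouse 1 had 3896 CP20M of Chga and WT mouse 2 had 1886, a ratio of 2.07, and the median ratio of mouse 1 to mouse 2 was 1.33 over the 16 genes called in HE pools and 1.09 over the other 15. It ranged from 0.621 for Rims2 to 2.29 for Syt14. Markers of other cell types differed between the groups as well. The summed smooth muscle markers were 87 and 51 CP20M in the WT crypts and 131 to 316 in the KO crypts, above both WT mice in every KO mouse, and the enteric neuron markers were 201 and 194 against 165 to 332. Absorptive colonocyte markers were 134197 and 146617 against 95261 to 120909, leukocyte markers 805 and 658 against 348 to 558, and general epithelial markers 90501 and 94029 against 77528 to 87592, with every KO mouse below both WT mice for these 3 lists. The goblet markers overlapped, at 448451 and 384123 against 381448 to 656700. The part of any of these in the 3 calls was not tested.

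In the Vil1Cre/+-Olfr78fx line, 30 of the 40 genes were tested and none was called, where 0.00% of all 15401 tested genes were. None of them had an unadjusted p under 0.05 with limma, and edgeR and DESeq2 also called 0. The median log2 fold change was -0.02. Sytl2 was 2952, 3864 and 3670 CP20M in control crypts against 2653 and 4335 CP20M for eKO, with a 95% interval of the log2 fold change of -0.58 to 0.52. Syt5 was 42, 57 and 95 against 21 and 46 CP20M (-0.78 ± 0.45), and Dnm1 was 170, 151 and 166 against 202 and 182 CP20M (0.23 ± 0.20). Without the library titled eKO mouse 2, whose genotype label reads as a control, still none was called.

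With both lines in 1 fit and the line as a covariate, 31 genes were tested and none was called by limma, where 0.0243% of all 16447 tested genes were, with 6 higher at an unadjusted p under 0.05 (5.00% of all were) and 0 called by edgeR or DESeq2. The smallest p values belonged to Sytl4, Dnm1 and Rab27a, each with an adjusted p of 0.57 or above. Sytl4 was 533 and 417 CP20M in WT crypts and 721, 567, 674, 613 and 659 in KO crypts, and 602, 472 and 583 in control crypts against 601 and 708 in eKO crypts (0.35 ± 0.11). Rab27a was 618 and 569 against 799, 962, 812, 868 and 772 CP20M, and 628, 654 and 729 against 649 and 739 (0.29 ± 0.10). Dnm1 had a log2 fold change of 0.52 ± 0.16. Without eKO mouse 2 none was called, and without eKO mouse 1, where eKO rests on the library with the conflicting label alone, Syt5 and Sytl2 were called higher, where 6.15% of all tested genes were.

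The interaction of line and genotype was called for none of the 31 genes (adjusted p of at most 0.2), where 0.0304% of all tested genes were. The genotype effect on Syt5 differed by -1.96 ± 0.47 on the log2 scale between the lines (eKO effect minus KO effect, adjusted p = 0.557), 6 genes had an unadjusted p under 0.05 (8.77% of all had), and edgeR called 0. Without eKO mouse 2 the interaction was called for 7 genes, all with a lower effect in the Vil1Cre/+-Olfr78fx line (Cadps, Cadps2, Pclo, Rab27a, Syt11, Syt5 and Sytl2), where 15.1% of all tested genes were called so and eKO rests on 1 mouse. Of the 46 further exocytosis genes, 25 were tested in crypts of the Olfr78-GFP line and 2 were called, a share near the 7.95% of all tested genes called higher there. They were Dnm3 (1.08 ± 0.40, adjusted p = 0.112) and Ppfia4 (0.78 ± 0.29, adjusted p = 0.116), both higher in KO crypts by limma, and none of the 34 general fusion genes was.

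**Figure D5:**
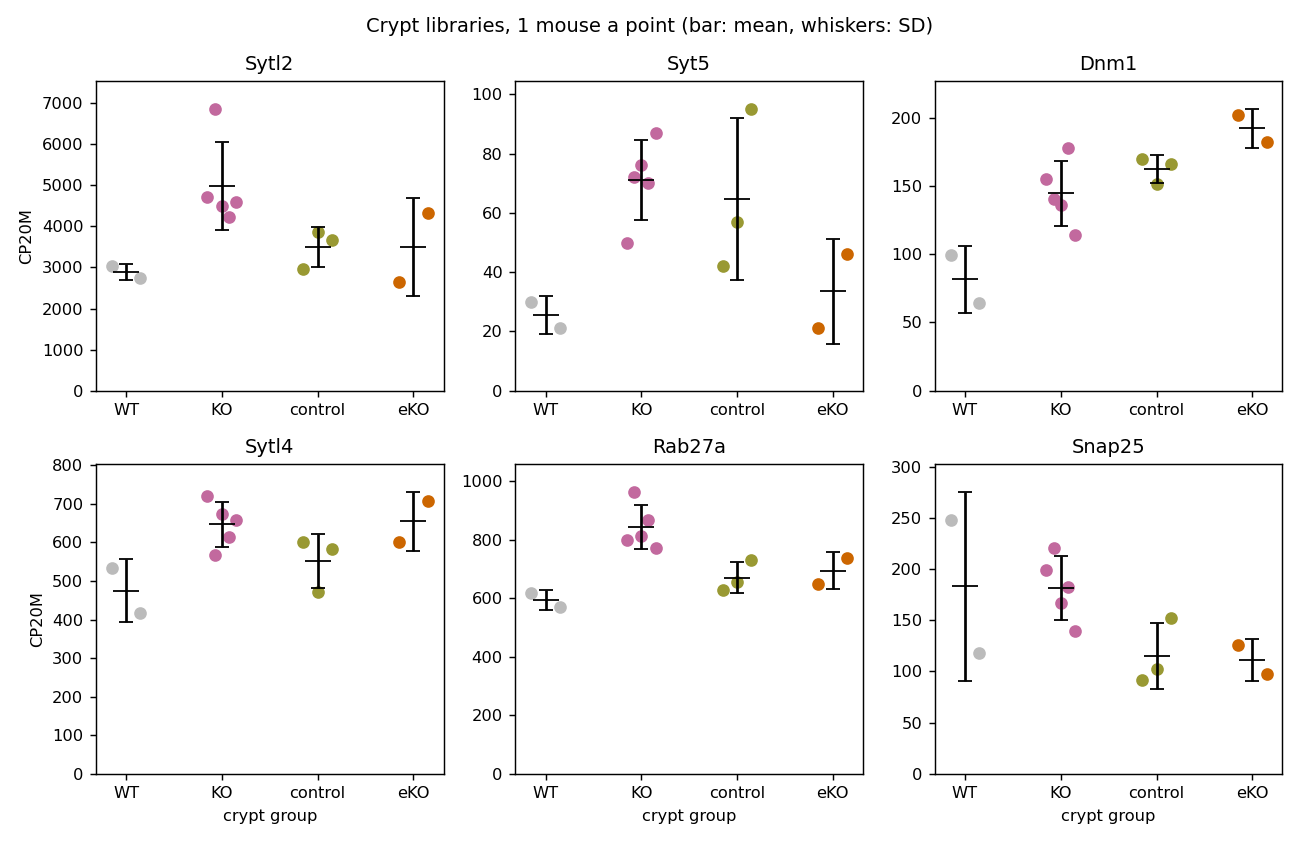
CP20M (y axis, from 0) of Sytl2, Syt5, Dnm1, Sytl4, Rab27a and Snap25 in the crypt libraries, 1 point a mouse, with the mean and SD of each group. For Sytl2, Syt5 and Dnm1 all 5 KO mice lie above both WT mice, while control and eKO crypts overlap for Sytl2 and Syt5, and the 2 WT mice were 248 and 118 CP20M for Snap25. The control and eKO crypts come from a separate table.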

How the data were processed

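RNA of sorted colon epithelial cells and of crypts was sequenced (Ovation Solo libraries, paired-end). The authors aligned reads with STAR to GRCm38 and counted them per gene with HTSeq on Ensembl 90. The deposited values, a normalized signal (a rounded score), are these counts scaled by the authors to a fixed total per library and rounded up. They are called CP20M (counts per 20M) and are the same kind of value for sorted cells and for crypts. The whole reads behind these deposited values were recovered from the steps of low values in each library (a whole number of reads gave back the deposited number exactly for 99.84% to 99.99% of values). Group labels came from the titles. limma 3.58.1 in R 4.3.3 was run with a trend of the spread on log2(CP20M + 10) over genes with at least 40 CP20M in at least 2 libraries (above 40 in all 4 pools for KO against HE). Alternatives were edgeR 4.0.16 and DESeq2 1.42.0 on the recovered reads, other pseudocounts, filters and scaling, the replicate block and each library left out. Scripts were tested on simulated data. For each comparison the number of the 40 members tested is given. Values in every library of the comparison concerned are printed for those called for HE against Epcam+ve, past the criterion for KO against HE, called in crypts or among the 3 smallest p there, and lower in HE at an unadjusted p under 0.05. Lengths are of GENCODE M21. The members and lists were chosen with earlier results of these data known. Intervals on reads cover counting error only. Some genes of the further lists are not reported here.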

Additional observations from a re-analysis of the deposited data

Results flagged for a closer look

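In the 5 KO crypts of the Olfr78-GFP line, 3 of the 40 genes had 1 library far from the other 4 by Dixon's test (critical value 0.71), and KO mouse 2 was that library each time. Cadps2 reached 1464 CP20M there, Sytl2 reached 6854 CP20M, and Bsn was lowest at 321 CP20M. Chance alone flags about 5% of such groups, and without KO mouse 2 the line had 4 members called, Sytl2 among them. The share over all genes is not given for that fit.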

How the results depend on the processing

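The 36 values of named genes followed here (those called, the 3 lower in HE pools and the 3 with the smallest p in both lines) changed direction in none of their alternatives, 408 alternative values kept their side of the threshold and 56 no longer passed it. Genes not called for KO against HE are not among them, and 11 of those turned sign with a KO pool left out. For HE pools against Epcam+ve samples, 17 members became 10 with a pseudocount of 1 and 0 without a trend, and 18 to 20 with each library left out. Over all genes the 287 calls became 77 and 0 in those fits, and 759 with edgeR.

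For KO against HE, the criterion gave 6 with median-of-ratios rescaling and 6 with the crossed pairing (chosen after seeing the data), 8 with the replicate block, and 8 to 27 with each pool left out. limma gave 4 with the crossed pairing and 0 to 14 with each pool left out. Rescaling moved the median over all genes from -0.176 to -0.018 there. For KO pools against Epcam+ve samples, 0 became 4 (edgeR), 18 (DESeq2), 3 (no filter), 14 (replicate block), 5 (all sorted libraries in 1 fit) and 13 to 21 with each library left out. Rescaling moved that median from -0.256 to -0.118. Counts in this section without a share over all genes show only how the number of members moved.

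In crypts of the Olfr78-GFP line, 3 became 7 with the replicate block and 1 to 6 with each mouse left out. Both lines together gave 0 to 2, the interaction 0 to 7 and the Vil1Cre/+-Olfr78fx line 0 throughout. The titles do not say whether same-numbered libraries belong together. Their deviations correlated at 0.030 (HE and Epcam+ve), -0.162 (KO and HE) and 0.023 (KO and Epcam+ve). In crypts the values were 0.061 and -0.103 (KO and WT), and they were higher for eKO and control, at 0.589 and 0.363. The cause of these shifts was not tested. At 1 read for 8.94 to 37.5 CP20M in sorted cells, low genes such as Syngr3 and Rab3b rest on few reads.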
